A study of Arabidopsis thaliana with 12 samples.

Results

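The comparison set 2 mock-treated samples collected at day 3 against 2 mock-treated samples collected at day 1. It was chosen by sample title and uses 4 of the 12 samples of the series. It compares the transcripts of mock-treated inflorescence tips at 2 times, 2 days apart. All plants were Arabidopsis thaliana homozygous for ap1-1 and cal-1 and expressed 35S:AGGR, a fusion of the floral regulator AGAMOUS to the rat glucocorticoid receptor, so the mock plants carried the fusion as well. Mock solution held 0.1% ethanol and 0.015% Silwet L-77, a wetting agent, and was applied to the tips of plants grown at 18 °C under 16 h days and 8 h nights. Steroid tips of the same days received 10 µM dexamethasone, a synthetic glucocorticoid, in that solution. They enter the spread between arrays, the comparisons with the mock tips and the alternative settings. RNA from the apices was hybridised to Affymetrix ATH1 arrays, 1 array a sample. The 2 samples of each group were independent per the series design, and the number of plants in a sample is not given in the sources used here. The 35S promoter is active in most tissues, and there was no group without the fusion.

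APETALA1 and CAULIFLOWER are closely related MADS-domain transcription factors that give young flower primordia their floral identity. In plants lacking both, each primordium behaves as an inflorescence meristem and makes further meristems, so the tip becomes a dense head that resembles a cauliflower. The fused AGAMOUS is held in the cytoplasm by the receptor part until a steroid releases it to the nucleus. The mock tips thus give the course of the meristem heads without release of the fusion, and the daily steroid effects of such an experiment are read against it.

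The arrays of days 1 and 3 were of like brightness, with deposited median intensities from 23 to 26.6 in mock day 3, from 16.1 to 20.8 in mock day 1 and from 18.6 to 32.2 in the 4 steroid arrays. After each array was scaled to a common median of 24.8, 15860 of 22746 probe sets, groups of short probes that each read a transcript or a few similar ones, passed a filter on dim signals, and 8875 of these had a single gene name. The 2 replicate arrays correlated with Pearson's r of 0.915 in mock day 3 and 0.884 in mock day 1, over probe sets that are no replicates of each other. GAPDH probes near the 3′ end read 8.36 and 12.2 times those near the 5′ end, a measure of how intact the RNA was, in mock day 3, against 4.16 and 11.2 times in mock day 1. Both mock day 3 arrays were scanned together in scan 4, whereas mock day 1 replicate 1 was the only array of scan 3 and replicate 2 was in scan 5, so that scan and day cannot be told apart within the mock arrays. Mock day 1 replicate 1 lay at least 4-fold below the median of the other 7 arrays of both days in 102 probe sets, against 19 to 63 in each of the others, and at least 4-fold above it in 39, against 3 to 31.

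Markers of the labelled tissue were read against the 40th percentile of each mock array. Most probe sets of an array exceed that level by definition, and no detection calls were given, so presence was not tested. Of 9 named genes of the list of meristem and shoot identity genes, 7 exceeded the 40th percentile of every mock array. Their summed scaled signal was 911 and 999 in mock day 3, against 842 and 1052 in mock day 1. CLV3, the peptide that limits the stem cell pool of the shoot meristem, read 20.1 and 30.2 in mock day 3, against 29.3 and 27.1 in mock day 1. AGL24, a MADS-domain gene of inflorescence meristems, read 206 and 134, against 232 and 102. The groups overlapped in both genes. UFO, an F-box gene of floral meristems, was dim at 12.3 and 6.62, against 2.62 and 1.67, and was not tested. The 11 named genes of floral organs, of which ALC was the brightest, summed to 1036 and 1042, against 1054 and 1084. Markers of other tissues were few. RCA, the Rubisco activase of green tissue, exceeded the 40th percentile of every mock array. It read 33.3 and 36.3, against 47.0 and 54.1, so both day 3 arrays lay below both day 1 arrays (log2 -0.49). The root marker PYK10, a beta-glucosidase, read 12.4 and 9.70, against 8.63 and 20.03. EXPA7, an expansin of root hairs, read 22 and 4.85, against 1.54 and 0.715, so both day 3 arrays lay above both day 1 arrays, although it did not pass the test (log2 1.51, unadjusted p = 0.121). Its part in the results was not tested. AMS, a regulator of the tapetum in the anther, was dim at 8.30 and 4.57, against 14.2 and 4.53. No vascular marker had a name here. In tissue samples of this kind, fewer cells of a type and less RNA per cell cannot be told apart.

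No gene passed the test between mock day 3 and mock day 1. limma, fitted to the 8 arrays of days 1 and 3 with a mean for each of the 4 groups, called 0 of 15860 probe sets (0% called) at a Benjamini-Hochberg adjusted p of 0.05. Its smallest adjusted p was 0.846. An unadjusted p under 0.05 was found for 609 probe sets (3.84%), of which 379 were higher (2.39%) and 230 lower (1.45%) at day 3, where 793 would be expected by chance alone if nothing changed. The median log2 change, on log2 of the scaled signal plus an offset of 4.35, was 0.03, with quartiles of -0.22 and 0.29. The offset makes log2 changes of weak signals too small.

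The spread between replicates was as large as the difference between the days. The 2 mock day 3 arrays differed from each other by a median absolute log2 value of 0.31 and the 2 mock day 1 arrays by 0.38. The 4 pairs of a day 3 with a day 1 array differed by 0.28 to 0.38. Their correlations ran from 0.890 to 0.927, so that the closest of all 6 pairs joined a day 3 array to a day 1 array. All pairs at 0.38 held mock day 1 replicate 1, alone in scan 3, and only the 2 mock day 3 arrays shared a scan. Mock day 1 replicate 2 differed from the mock day 3 arrays by 0.345 and 0.277, against 0.314 between those arrays. With 2 arrays in each group, 0.333 is the smallest p an exact permutation test of a single gene allows.

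What these arrays could have shown depended on signal level. The median half-width of the 95% interval of the log2 change was 0.76. It was 0.61 in the brightest 3965 probe sets, with mean scaled signals from 95.7 to 5110, and 1.40 in the dimmest 3965, below 20.6. For 6990 probe sets (44.1%) the whole interval lay within a 2-fold change either way, 76.4% of the brightest set and 0.782% of the dimmest. For the others the interval reached past 2-fold in at least 1 direction, so these arrays do not bound the change to less than that.

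**Figure D1:**
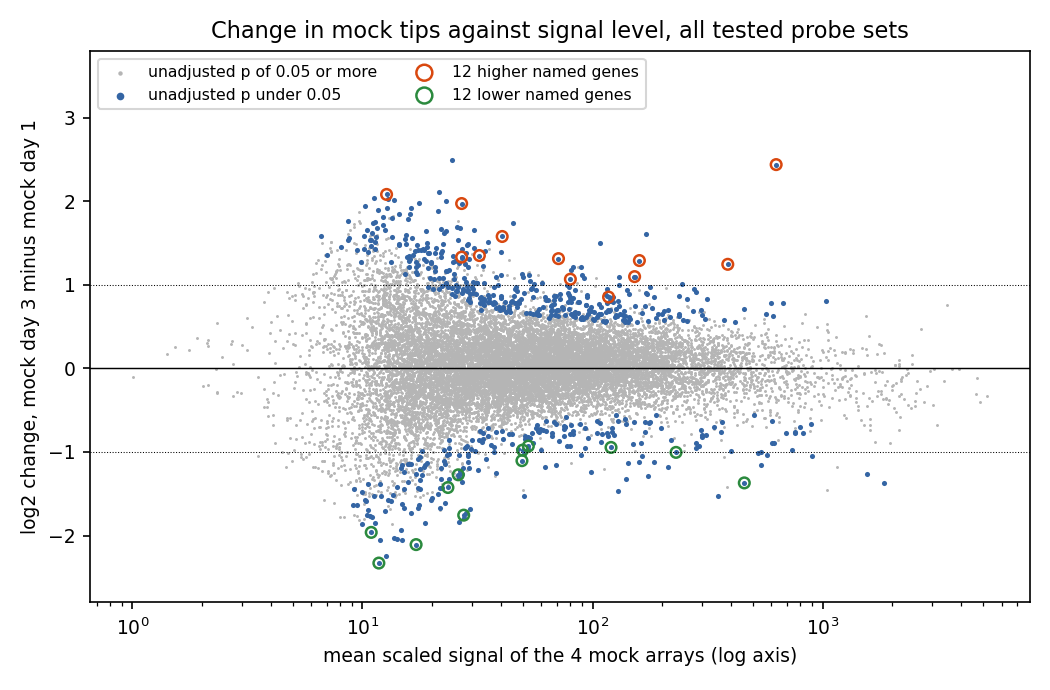
Each point is 1 of 15860 tested probe sets, placed by its mean scaled signal over the 4 mock arrays (log axis) and its log2 change, mock day 3 minus mock day 1. The points spread more widely at low signal, the dotted lines mark a 2-fold change, and the circles mark the 12 higher and 12 lower named genes described in the text.

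Separation of the 4 arrays alone was common. Both day 3 arrays lay above both day 1 arrays in 2990 probe sets (18.9%) and below them in 2249 (14.2%). In the steroid arrays of the same days the shares were 11.4% and 13.3%. A change of at least 2-fold was fitted for 440 probe sets higher (2.77%) and 369 lower (2.33%). The 12 higher and 12 lower genes below are those with a single name, no overlap between the days and the lowest unadjusted p. None passed the test, and the separation of their groups is how they were chosen. Their adjusted p was 0.999 each.

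The largest of the higher values was that of AT3G15450, with 1331 and 805 in mock day 3, against 165 and 213 in mock day 1. Its log2 change was 2.44 (SE 0.69, unadjusted p = 0.00347, limma). The steroid arrays did not separate in this gene, with 423 and 1335 at day 3, against 252 and 1885 at day 1. On deposited values without scaling AT3G15450 passed, at log2 2.86 and adjusted p = 0.00115. With the scan as a fixed block it stood at 3.90 and did not pass. That fit sets mock day 3 against mock day 1 replicate 2 alone. It takes the step between their scans from the 2 steroid day 3 arrays, which lay far apart in this gene.

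AT5G63190 had the lowest p of any named gene. It read 558 and 530.5 in mock day 3, against 272 and 189.5 in mock day 1, a log2 change of 1.25 (SE 0.26, 95% interval 0.69 to 1.80, unadjusted p = 0.000298). The steroid arrays, at 322 and 297 on day 3, against 335 and 359 on day 1, lay between the 2 mock groups. AT4G20430 read 59.3 and 66.4, against 17.6 and 18.7, a log2 change of 1.58 (SE 0.34). AT3G05190 read 35.2 and 51.7, against 1.69 and 19.4, so the day 1 arrays differed from each other by more than the day 3 arrays did. Without mock day 1 replicate 2 AT3G05190 passed, at log2 2.96 and limma adjusted p = 0.024, and without replicate 1 it stood at 0.98.

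SEC6, a subunit of the exocyst, the complex that tethers secretory vesicles to the plasma membrane, read 43.7 and 37.1 in mock day 3, against 16.2 and 10.97 in mock day 1. The log2 change was 1.33 (SE 0.37, unadjusted p = 0.00276), and the groups lay well apart. Other exocyst subunits on the vesicle traffic list were SEC15A at log2 0.86 (48.3 and 56.1, against 35.4 and 19.8, unadjusted p = 0.0499), SEC5A at 0.57, SEC10 at 0.30 and SEC15B at 0.02. In steroid tips SEC6 read 44.4 and 31.5 at day 3, against 34.9 and 27.6 at day 1, and the groups overlapped. The serine carboxypeptidase-like gene scpl26, of a family of secreted hydrolases and acyltransferases, read 159 and 146, against 86.6 and 78.3, with a log2 change of 0.85.

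The 6 further higher genes were AT5G43310, AT2G38820, AT5G04810, AT1G32700, AT4G26490 and AT1G33260. Their log2 changes lay between 1.07 and 2.08. AT1G33260 was the dimmest, at 21.6 and 24.99 in mock day 3, against 1.85 and 2.50 in mock day 1, where both signals lay under the offset. AT2G38820 had the closest replicates, with 112 and 108, against 50.4 and 50.1. The reference tables name these genes by locus alone, so no role is given.

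Among the lower genes the best known was THI2.1, a thionin, a small antimicrobial protein of leaves and flowers whose transcript responds to jasmonate. It read 7.87 and 10.8 in mock day 3, against 65.6 and 25.9 in mock day 1, a log2 change of -1.76 (SE 0.48, unadjusted p = 0.00252). The 2 day 1 arrays differed from each other by more than 2-fold, and the 4 steroid arrays, from 16.7 to 23.5, lay between the mock groups. Without mock day 1 replicate 1 the log2 change of THI2.1 was -1.15, and without replicate 2 it was -2.36.

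scpl33, of the same family as scpl26, had the most negative value, at 0.970 and 0.839 in mock day 3, against 16.9 and 28.4 in mock day 1 (log2 -2.33, SE 0.75). Its day 3 signals lay under the offset of 4.35. AT5G39560, whose day 3 signals also lay under the offset, read 1.73 and 2.05, against 19.3 and 20.6, a log2 change of -1.96. AT5G48480 was the brightest of the lower genes, at 198 and 264, against 1013 and 353, and it moved to log2 -0.61 without mock day 1 replicate 1 and to -2.13 without replicate 2. The other 8, AT1G63720, AT5G17530, AT5G43260, AT4G30330, AT2G36730, AT4G32350, AT3G44590 and AT2G43620, had log2 changes between -0.93 and -2.11. AT5G43260 had close replicates, with 31.5 and 32.6, against 67.8 and 66.9.

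The 2 lowest p-values of all belonged to probe sets without a name. 250007_at read 322 and 202 in mock day 3, against 74.9 and 87.6 in mock day 1, a log2 change of 1.60 with an unadjusted p of 5.33e-05 (limma adjusted p = 0.846). 254197_at read 67.8 and 22.8, against 2.31 and 4.89 (log2 2.50), and passed on unscaled values at log2 2.65 and adjusted p = 0.00115. Of the lower ones, 259466_at read 44.4 and 69.6, against 164 and 115, and 252514_at 20.3 and 19.3, against 74.7 and 37.3, with log2 changes of -1.24 and -1.25.

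**Figure D2:**
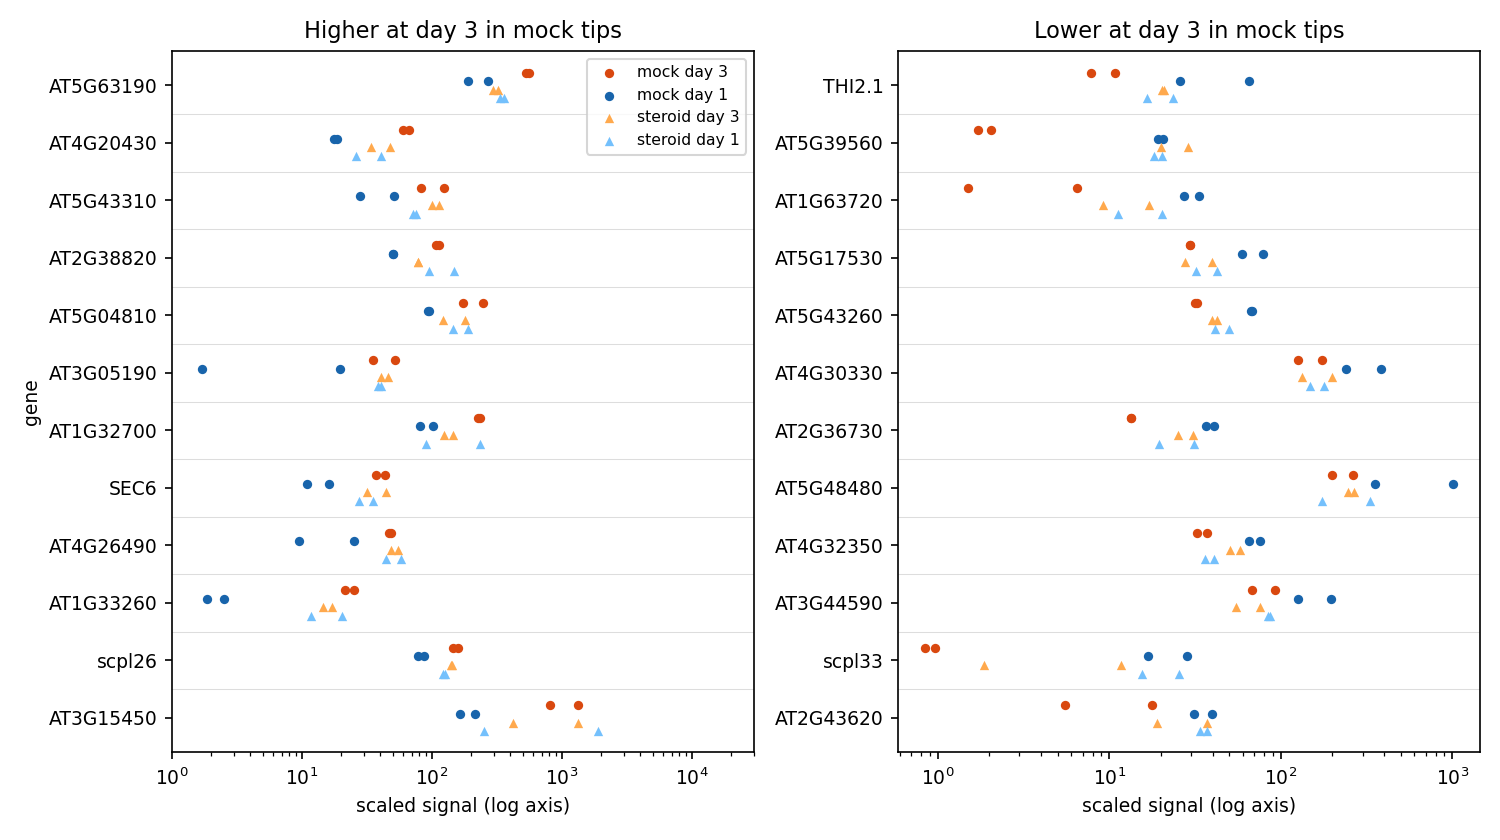
Scaled signal (log axis) of the 12 higher (left) and 12 lower (right) named genes in each array, with mock day 3 and mock day 1 as circles and steroid day 3 and steroid day 1 as triangles. The mock groups do not overlap in any row, since the genes were chosen so, and in most rows the steroid triangles of both days lie close together, as in SEC6 and THI2.1.

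Steroid day 1 tips had received dexamethasone. In 10 of the 12 higher and 7 of the 12 lower genes the mean of steroid day 1 lay nearer to mock day 3 than to mock day 1. Over all tested probe sets this held for 53%, and over those with no overlap between the mock days for 53.6%. The named genes were chosen by these same mock values, so their counts are a description and not a test. Mock day 7 gives a further reading, although those arrays were brighter, with deposited medians of 84.9 and 95.3, and the contrast shares the mock day 1 arrays. They formed scan 1 alone, and their GAPDH 3′ to 5′ ratios were 1.31 and 1.32, against 4.16 and 11.2 in mock day 1, so that scan, RNA state and day cannot be told apart in this contrast. In a 12-array fit, mock day 7 differed from mock day 1 in 3895 probe sets (24.6%), among them 4 of the 12 higher genes, all 4 higher at day 7, and 6 of the 12 lower genes, 5 lower and 1 higher at day 7. The exception was AT3G44590, at 300.6 and 306.9 in mock day 7, against 195.8 and 125.3 in mock day 1 (log2 0.94, limma adjusted p = 0.0143). SEC6, at 88.6 and 101 on day 7, was called with a log2 of 2.48 (limma adjusted p = 7.67e-05), whereas AT4G20430 read 20.6 and 19.4 there, near its mock day 1 values, with a log2 of 0.12. AT5G48480 at 1152 and 1259 stood above its mock day 1 values on day 7 but was not called (adjusted p = 0.0823).

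The same 2 days in steroid tips, which share no array with the mock tips, gave a second set of changes. The 2 sets share scans, however. Steroid day 3 replicate 1 was in scan 4 with both mock day 3 arrays. Both steroid day 1 arrays were in scan 5 with mock day 1 replicate 2. The part of scan in changes common to both treatments was not tested. Across the 15860 probe sets the mock and the steroid change had Pearson's r of 0.06 and Spearman's rho of 0.08, a description over probe sets, which are no independent replicates, and 52.5% had the same sign. limma called 0 probe sets in steroid tips (0%), with 323 at an unadjusted p under 0.05 (2.04%). The direct test of the difference between the treatments called 0 (0%), with 338 at an unadjusted p under 0.05 (2.13%) and a smallest adjusted p of 1. The mean of both changes, 4 arrays against 4, also had 0 calls (0%), with 513 at an unadjusted p under 0.05 (3.23%). Of the 24 named genes, 8 of the 12 higher ones were above 0 and 6 of the 12 lower ones below 0 in steroid tips.

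Some probe sets separated without overlap in both treatments, 368 of them higher in both (2.32%), 376 lower in both (2.37%) and 546 in opposite directions (3.44%). Whether these shares exceed those of unrelated changes was not tested. The genes given here were chosen from them after their values were seen, and in none did the mean of both changes pass (adjusted p = 1). AT1G49180 read 5.61 and 6.43 in mock day 3, against 24.7 and 32.9 in mock day 1, and 5.70 and 9.50 in steroid day 3, against 20 and 41.6 in steroid day 1, for log2 changes of -1.67 in mock and -1.50 in steroid. IQD30, of a family of calmodulin-binding proteins, read 130 and 80.3, against 40.2 and 59.3, in mock tips and 75.2 and 77.0, against 39.9 and 55.2, in steroid tips. KIWI, a transcriptional coactivator, was lower in both, with log2 changes of -0.76 in mock and -0.65 in steroid. AT5G43310 was the only one of the 12 higher genes at log2 0.5 or more in steroid tips, with 1.31 in mock and 0.52 in steroid.

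**Figure D3:**
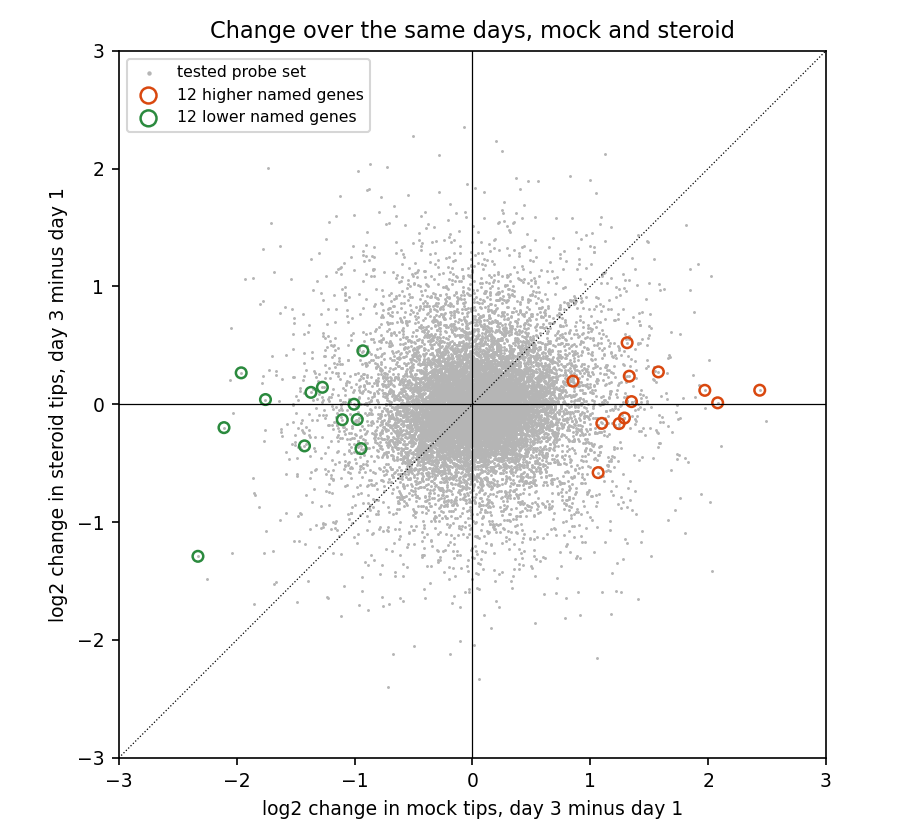
Log2 change between day 3 and day 1 in mock tips (horizontal) and in steroid tips (vertical) for 15860 tested probe sets, with the 12 higher and 12 lower named genes circled. The cloud has no slope to the eye (Pearson's r 0.06), and most circles lie near the horizontal line at 0, scpl33 at -2.33 and -1.29 being the one farthest from it.

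The gene lists were read by counts. Of 615 named list members, 444 were tested and limma called 0. An unadjusted p under 0.05 was found for 18 of them (4.05%), 15 higher and 3 lower, against 3.84% of all tested probe sets. Both day 3 arrays lay above both day 1 arrays in 88 members (19.8%) and below in 40 (9.01%), against 18.9% and 14.2% of all. Of the 35 lists with at least 3 tested members, 16 had a median above that of all tested probe sets, and 30 medians lay inside the quartiles of all.

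The meristem genes that had a name lay close to 0. Many other meristem and floral identity genes had no name here, so they were not read. The 8 tested genes of meristem and shoot identity had log2 changes between -0.16 and 0.11 and a median of -0.03, and for 7 of them the 95% interval lay within a 2-fold change. Among them were the MADS-domain gene AGL42, at 340 and 252 in mock day 3, against 315 and 247 in mock day 1, and POL, a phosphatase that acts with the CLV pathway, at 88.2 and 70.6, against 80.0 and 81.3. The bZIP factor FD, a partner of the florigen FT in flowering, read 52.9 and 57.3, against 59.9 and 54.6. The 6 tested genes of floral organs had a median of -0.33, which became 0.04 without mock day 1 replicate 2 and 0.02 without mock day 3 replicate 2. EMS1, a receptor kinase of the anther, read 81.2 and 79.9, against 120 and 81.4. The brightest members had log2 changes near 0. ALC read 691 and 774, against 766 and 699 (log2 0.00, 95% interval -0.61 to 0.61). SPT read 176 and 147, against 145 and 175 (log2 0.01, 95% interval -0.52 to 0.55). RBE, ROXY1 and NUB, at log2 -0.63, -0.38 and -0.69, were dimmer, with mock signals from 1.31 to 34.8. Of the 4 tested organ polarity genes, YAB5 had the largest value at log2 1.16 (23.8 and 13.2, against 4.62 and 6.68, unadjusted p = 0.0562). INO stood at 0.59 (28.5 and 26.9, against 15.4 and 18.5), YAB3 at 0.25 and PHV at -0.30. Both day 3 arrays lay above both day 1 arrays in 3 of the 4 (75%) and below in 1 (25%). Over all tested probe sets the shares were 18.9% and 14.2%. Only INO was also higher without overlap in steroid tips. YAB5 and YAB3 are YABBY factors of the abaxial side of organs and PHV an HD-ZIP factor of the adaxial side.

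Proliferation genes showed no common direction. Of 6 tested core histone genes, 4 were below 0, with a median of -0.32 that became 0.04 without mock day 1 replicate 1. HTB2, an H2B histone, read 118 and 123.3, against 226 and 117, so that 1 day 1 array set its log2 of -0.42. Of 7 tested cell cycle genes 5 were above 0. The spindle checkpoint gene BUBR1 stood at log2 1.201 (36.5 and 35.4, against 6.32 and 24.4) and BUB3.2, of the same checkpoint, at -1.09. With the scan as a fixed block BUBR1 stood at -1.52. The mitotic kinase AUR1 read 150 and 164, against 131 and 120.

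Photosynthesis and organelle genes were spread on both sides of 0. The 11 nuclear photosynthesis genes had a median of 0.05 and none had an unadjusted p under 0.05. PORB, a protochlorophyllide oxidoreductase of chlorophyll synthesis, read 283 and 175 in mock day 3, against 135 and 132 in mock day 1 (log2 0.72, SE 0.28, unadjusted p = 0.0213), while in steroid tips its log2 change was -0.36. The test of that difference gave an unadjusted p of 0.0160 and an adjusted p of 1. Of 65 tested plastid-encoded genes, 34 were above 0 and the median was 0.08, with 10 above (15.4%) and 2 below (3.08%) without overlap, against 18.9% and 14.2% of all tested probe sets. psbI, a small photosystem II subunit, read 249 and 129, against 83.8 and 101 (log2 0.93), and ndhC, of the NDH complex, 356 and 426, against 143 and 330 (log2 0.83). The photosystem II gene psbA read 57.7 and 65.6, against 214 and 55.6. Without mock day 3 replicate 1 the median of the plastid list was -0.19, and without mock day 3 replicate 2 it was 0.55, so the direction of this list depended on which day 3 array was read. The mitochondrial list behaved alike, with -0.24 without mock day 3 replicate 1, against a median of 0.14 over 17 probe sets. Its lowest member, nad5, a complex I subunit, read 2.26 and 2.52, against 17.1 and 16.0 (log2 -1.63, unadjusted p = 0.0440), on a probe set shared by several transcripts. The day 3 signals of nad5 lay under the offset.

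Among wall genes, EXPA15, an expansin that loosens the wall, read 34.1 and 39.9 in mock day 3, against 83.3 and 57.4 in mock day 1 (log2 -0.83, SE 0.31, unadjusted p = 0.0169). PMEPCRF, a pectin methylesterase, read 244 and 374, against 129 and 208 (log2 0.87). The 22 tested members of that list had a median of 0.04 and 12 were above 0. TBL28, of a family that acetylates wall polymers, read 36.2 and 30.1, against 17.3 and 14.6 (log2 0.89), and 21 of 31 members of its list were above 0, with a median of 0.11. ACT11, an actin of reproductive tissues, read 39.5 and 51.7, against 19.4 and 30.1 (log2 0.79), whereas the 7 tested tubulin genes lay between -0.23 and 0.18.

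Members of further lists also had an unadjusted p under 0.05. ATG8E, of the ubiquitin-like proteins that coat autophagosomes, read 185 and 173 in mock day 3, against 70.1 and 94.4 in mock day 1 (log2 1.09, SE 0.38, unadjusted p = 0.0124). Other members of that family included ATG8C at log2 -0.38, ATG8F at 0.02, ATG8D at 0.03 and ATG8G at 0.16. UBC22, a ubiquitin-conjugating enzyme, read 597 and 535, against 304 and 389 (log2 0.71). GTR2, a glucosinolate transporter listed here with nitrogen transporters, read 34.6 and 27.0, against 12.5 and 14.3 (log2 0.98). GSTU27, a glutathione transferase, read 115 and 89.7, against 38.7 and 74.9 (log2 0.86), and CYP71B28, a cytochrome P450, 127 and 88.6, against 65.6 and 64.5 (log2 0.67). FHL, a relative of the phytochrome A transport protein FHY1 in light signalling, was chosen after its values were seen, from a list with under 3 tested members. It read 32.1 and 49.9, against 3.54 and 28.3 (log2 1.47, unadjusted p = 0.0167). With the scan as a fixed block GSTU27 stood at log2 -0.36 and UBC22 at -0.22.

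Hormone genes were few by name. All 6 tested gibberellin genes had values below 0, with a median of -0.44 against 0.03 over all tested probe sets, and 2 (33.3%) had no overlap between the days, both lower, against 14.2% of all. With the scan as a fixed block the median was -0.12, against -0.16 over all. GID1A, GID1B and GID1C, the gibberellin receptors, stood at log2 -0.63, -0.60 and -0.52, the F-box genes SLY1 and SLY2 at -0.29 and -0.36, and SPY, a repressor of the pathway, at -0.03. None had an unadjusted p under 0.05. GID1B read 3.13 and 31.2 in mock day 3, against 25.6 and 16.2 in mock day 1, so the day 3 arrays enclosed the day 1 arrays, and GID1A read 19.2 and 15.8, against 45.9 and 18.1. Their median in steroid tips was -0.13, with 1 of 6 above 0. The 13 tested auxin genes had a median of -0.02. ARR15, a response regulator induced by cytokinin, had log2 -1.21 on signals of 0.863 and 15.0, against 12.8 and 27.3.

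**Figure D4:**
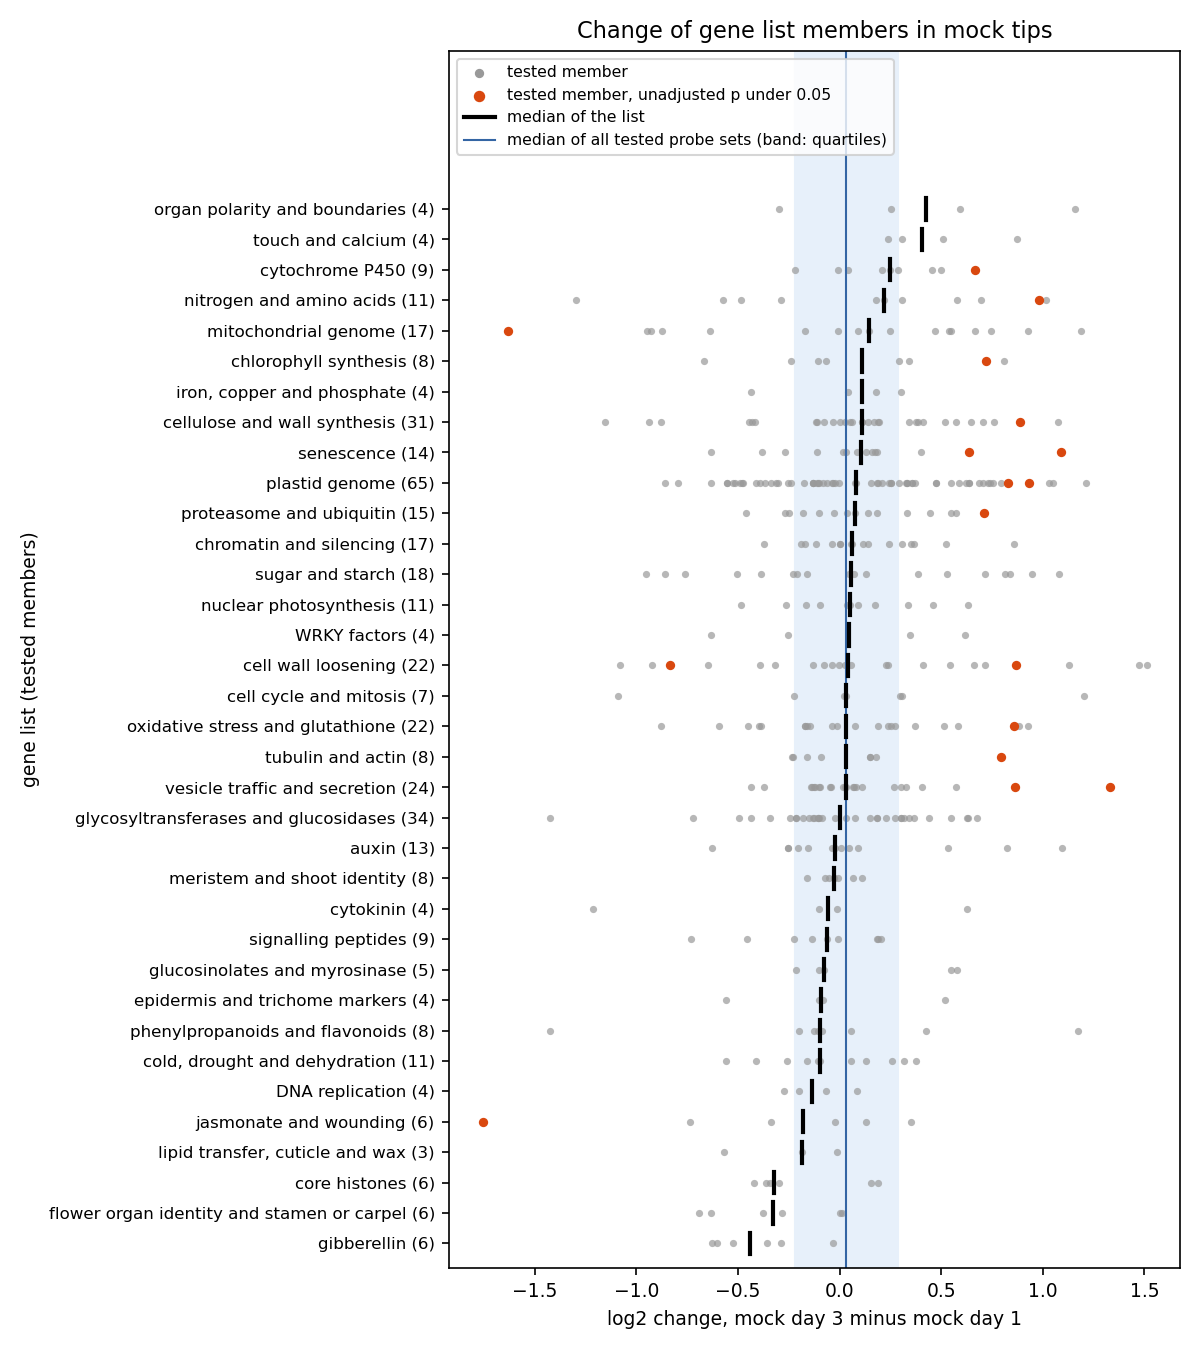
Log2 change, mock day 3 minus mock day 1, of every tested member of the 35 lists with at least 3 tested members, sorted by list median (black bars), with the number of tested members in parentheses. Members with an unadjusted p under 0.05 are orange, and most list medians lie in the blue band, the quartiles -0.22 to 0.29 of all tested probe sets.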

How the data were processed

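Per the labels' protocols, each array received biotinylated cRNA prepared from 6 µg total RNA. The deposited values are linear signal intensities, 1 for each probe set on each array, made with MAS5 per the submitters' processing notes, with no version. Its scaling and detection calls are not given in the sources used here. Each array was multiplied to a common median of 24.8, 4.35 (the median over arrays of the 20th percentile) was added and log2 taken. Array controls (64) were left out, and a probe set was tested if at least 2 of the 8 arrays of days 1 and 3 exceeded their own 40th percentile. No 2 arrays held identical values. limma 3.58.1 in R 4.3.3 (lmFit, eBayes with a variance trend) was fitted to these 8 arrays with 4 group means, giving 4 residual and 9.97 prior degrees of freedom. All tests were two-sided, p-values were adjusted by Benjamini-Hochberg over 15860 probe sets, and those under 0.05 are called. The p-values weigh a change against a spread pooled over the 4 groups of these samples and drawn towards that of other probe sets. The routine was tested on simulated data. The 4 day 7 arrays entered only 1 fit of all 12 arrays.

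Of 22746 probe sets, 13513 had 1 symbol, 503 several and 8730 none. 13436 were matched by gene identifier to the TAIR10.1 gene table. Named genes were, in each direction, up to 12 with a single name, no overlap and the lowest unadjusted p where none was called, up to 2 unnamed probe sets, and up to 2 members of each list with at least 3 tested members. Beyond that rule, members of a list are named to show its spread. The members and lists were chosen with earlier results of these data known. The alternatives covered scaling, offset, filter, arrays in the fit, variance model, replicate and scan blocks, and leaving out each array.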

Additional observations from a re-analysis of the deposited data

How the results depend on the processing

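The count of 0 called probe sets for mock day 3 against mock day 1 was kept in 21 of 23 alternative settings. The deposited values without scaling gave 2 calls, AT3G15450 and 254197_at, both higher, with a median log2 change of all probe sets of 0.42. Over the settings that leave out 1 array the count ran from 0 to 15. The 15 calls came without mock day 1 replicate 2, which leaves replicate 1, the only array of scan 3, as the day 1 group, its spread assumed to be that of the other groups. Of these 15, 7 were higher and 8 lower, and 4 had no overlap when all 4 mock arrays were read. AT4G29030, 1 of them, read 94.6 and 159 in mock day 3, against 1198 and 91.1 in mock day 1. Without mock day 1 replicate 1 limma called 0, with 481 at an unadjusted p under 0.05. The difference between treatments and the mean of both changes had 0 calls in every setting run. The number of probe sets with an unadjusted p under 0.05 was 609 as reported, 388 under the strict filter (of 10256 tested) and 444 with scan as a random block. It was 770 with scan as a fixed block (median log2 change -0.16), 987 without a filter (of 22746 tested) and 1233 with all 12 arrays. No scan held both mock days. With scan as a fixed block, mock day 1 replicate 1, alone in scan 3, therefore drops out of the mock difference. The step between scans 4 and 5 then rests on the 2 steroid day 3 arrays alone. The labels do not say that a replicate number pairs arrays, and same-numbered arrays deviated together only weakly, with correlations from 0.103 to 0.212. With the replicate block limma called 0, with 978 at an unadjusted p under 0.05.

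Each of the 24 named genes kept its sign in every setting in which it was tested, 14 of them under the strict filter. Most settings could not have turned a sign, since the genes were chosen for no overlap between the days. Leaving out an array, or changing the offset, filter or variance model, leaves the sign of such a gene fixed. Because the unscaled values and the scan block shift all probe sets, list medians were read against the median of all in the same setting, a reading chosen after seeing the data. So read, 2 of 35 kept their sign in every setting run, cellulose and wall synthesis (0.02 to 0.30 above all) and cytochrome P450 (0.0085 to 0.32 above all). Gibberellin, from -0.69 to 0.04, turned only with the scan as a fixed block. Read against 0 instead, the 2 lists that kept their sign were cellulose and wall synthesis (0.06 to 0.52) and gibberellin (-0.68 to -0.07). Cytochrome P450 then turned, to -0.02 with the scan as a fixed block.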
